A study of Mus musculus with 11 samples.

Results

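Open chromatin around the 4 Egr genes, Egr1, Egr2, Egr3 and Egr4, was read from ATAC-seq peak lists of mouse dentate gyrus, the hippocampal subregion that holds the granule neurons. ATAC-seq marks open chromatin with a transposase that inserts adapters where DNA is accessible. All peaks within 50 kb of each gene's transcription start in the mm9 build were taken. Overlapping peaks of all libraries were merged into regions, which gave 34 regions of 128823 in the series and 209 peaks of 498212. Of the 34 regions, 6 lay near Egr1, 7 near Egr2, 10 near Egr3 and 11 near Egr4. The mice were C57BL/6 and 8 weeks old, and every one carried an adeno-associated virus (AAV) in the dentate gyrus that expressed an shRNA. The 11 libraries, 1 per mouse, fell into 4 groups: shRNA-cFos (against c-Fos) at E1 with 2 libraries, shRNA-cFos at E0 with 3, shRNA-Ctrl (the control shRNA) at E1 with 3 and shRNA-Ctrl at E0 with 3. The study concerned neuronal activation, the names of the E0 lists carry the word sham, and the labels do not define E0 or E1 further. The cell type driven by the virus, the share of cells infected and the degree of c-Fos loss are not given in the sources used here. In this bulk tissue, fewer open cells and less opening per cell cannot be told apart.

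The Egr proteins are zinc-finger transcription factors that bind GC-rich sites. Their genes are immediate early genes: stimulation switches them on quickly, from factors already present in the cell such as the serum response factor and CREB. In the hippocampus Egr1 (also called Zif268) is a standard marker of recently active neurons and is needed for lasting memory. Outside the hippocampus Egr2 is known for hindbrain patterning and for myelination by Schwann cells. Egr3 is known for muscle spindle development and Egr4 for male fertility in mice. c-Fos, the target of the shRNA, is also an immediate early gene product and is a subunit of the AP-1 transcription factor.

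Binding motifs known from immediate early genes, the CArG box bound by serum response factor and the cAMP response element bound by CREB, were looked for in the promoter sequences that RefSeq supplies for GRCm38.p6. Of the 4 genes, windows from that table were taken for Egr2 and Egr4. Their 250 bases before the start are shown here because all 11 libraries had a peak at both promoters. No window was taken for the other genes, which does not show that the table lacks them. Capitals mark matches to the CArG box and to the cAMP response element short form TGACG, read on either strand. The Egr2 window is chr10:67537619-67537868 (GRCm38.p6, + strand) and is 1 of 5 Egr2 windows in the table. The Egr4 window is chr6:85513590-85513839 (GRCm38.p6, - strand).
Egr2: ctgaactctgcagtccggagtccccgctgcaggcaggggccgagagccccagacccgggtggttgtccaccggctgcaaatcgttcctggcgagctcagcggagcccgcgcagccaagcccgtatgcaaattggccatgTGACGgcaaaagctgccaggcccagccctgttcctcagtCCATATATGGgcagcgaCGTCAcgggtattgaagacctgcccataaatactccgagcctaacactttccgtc
Egr4: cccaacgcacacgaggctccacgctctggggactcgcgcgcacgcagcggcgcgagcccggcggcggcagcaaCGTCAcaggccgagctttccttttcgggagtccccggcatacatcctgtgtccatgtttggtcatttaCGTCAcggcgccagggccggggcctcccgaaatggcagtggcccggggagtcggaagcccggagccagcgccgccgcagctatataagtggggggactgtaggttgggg
The Egr2 window held a CArG box that began 72 bases before the start, and 1.47% of 32851 promoters held one on either strand. TGACG began 111 bases before the Egr2 start, and its reverse form CGTCA began 55 bases before it. Not all Egr2 windows were alike. The window chr10:67535249-67535498 held none of the motifs searched, and chr10:67537316-67537565 held another CArG box and no TGACG on either strand. Those that begin at 67537620 and 67537680 overlap the printed window and held the same matches. The Egr4 window held no CArG box and held CGTCA at 177 and at 109 bases before the start. TGACG was found in 17.8% of all promoters, so its presence separates few genes. The letters of the full element TGACGTCA (1.55% of promoters), the AP-1 site TGANTCA (6.75%), the Egr site GCGNGGGCG (4.7%) and the TATA box TATAAA (12.4%) were in neither printed window, on either strand. GC content was 61.6% in the Egr2 window and 68% in the Egr4 window, against a median of 52.4% over all promoters. These windows are on another build than the peaks, so no peak edge was placed on them.

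The deposited lists held from 25215 to 78377 peaks, a 3.11-fold range, and read depth is unknown. List length moved with the groups: the lists had 40686 to 48310 peaks in shRNA-cFos E1, 28478 to 74473 in shRNA-cFos E0, 35517 to 78377 in shRNA-Ctrl E1 and 25215 to 29554 in shRNA-Ctrl E0. Peaks near the Egr genes followed, with 27 and 18 in shRNA-cFos E1, 17, 25 and 13 in shRNA-cFos E0, 28, 15 and 28 in shRNA-Ctrl E1 and 11, 13 and 14 in shRNA-Ctrl E0. Values are therefore from the lists as deposited and, where stated, for the same libraries from lists of equal length that keep the 25145 peaks with the best scores. In the lists of equal length these peaks numbered 14 and 14 in shRNA-cFos E1, 11, 12 and 11 in shRNA-cFos E0, 11, 12 and 11 in shRNA-Ctrl E1 and 11, 12 and 14 in shRNA-Ctrl E0. In 9 of 11 lists the deposited name holds 1 more word than in those of shRNA-Ctrl E1 replicates 1 and 3. These 2 lists are the longest, and the part of that difference in naming in the results was not tested. Strength is given as the score percentile, the percent of peaks in the same list with a score at or below that of the region's best peak, and is 0 where the library called no peak. E1 minus E0 differences are the mean of the differences within the 2 shRNA groups, with equal weight for each, and shRNA-cFos minus shRNA-Ctrl differences are likewise the mean over E1 and E0.

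**Figure D1:**
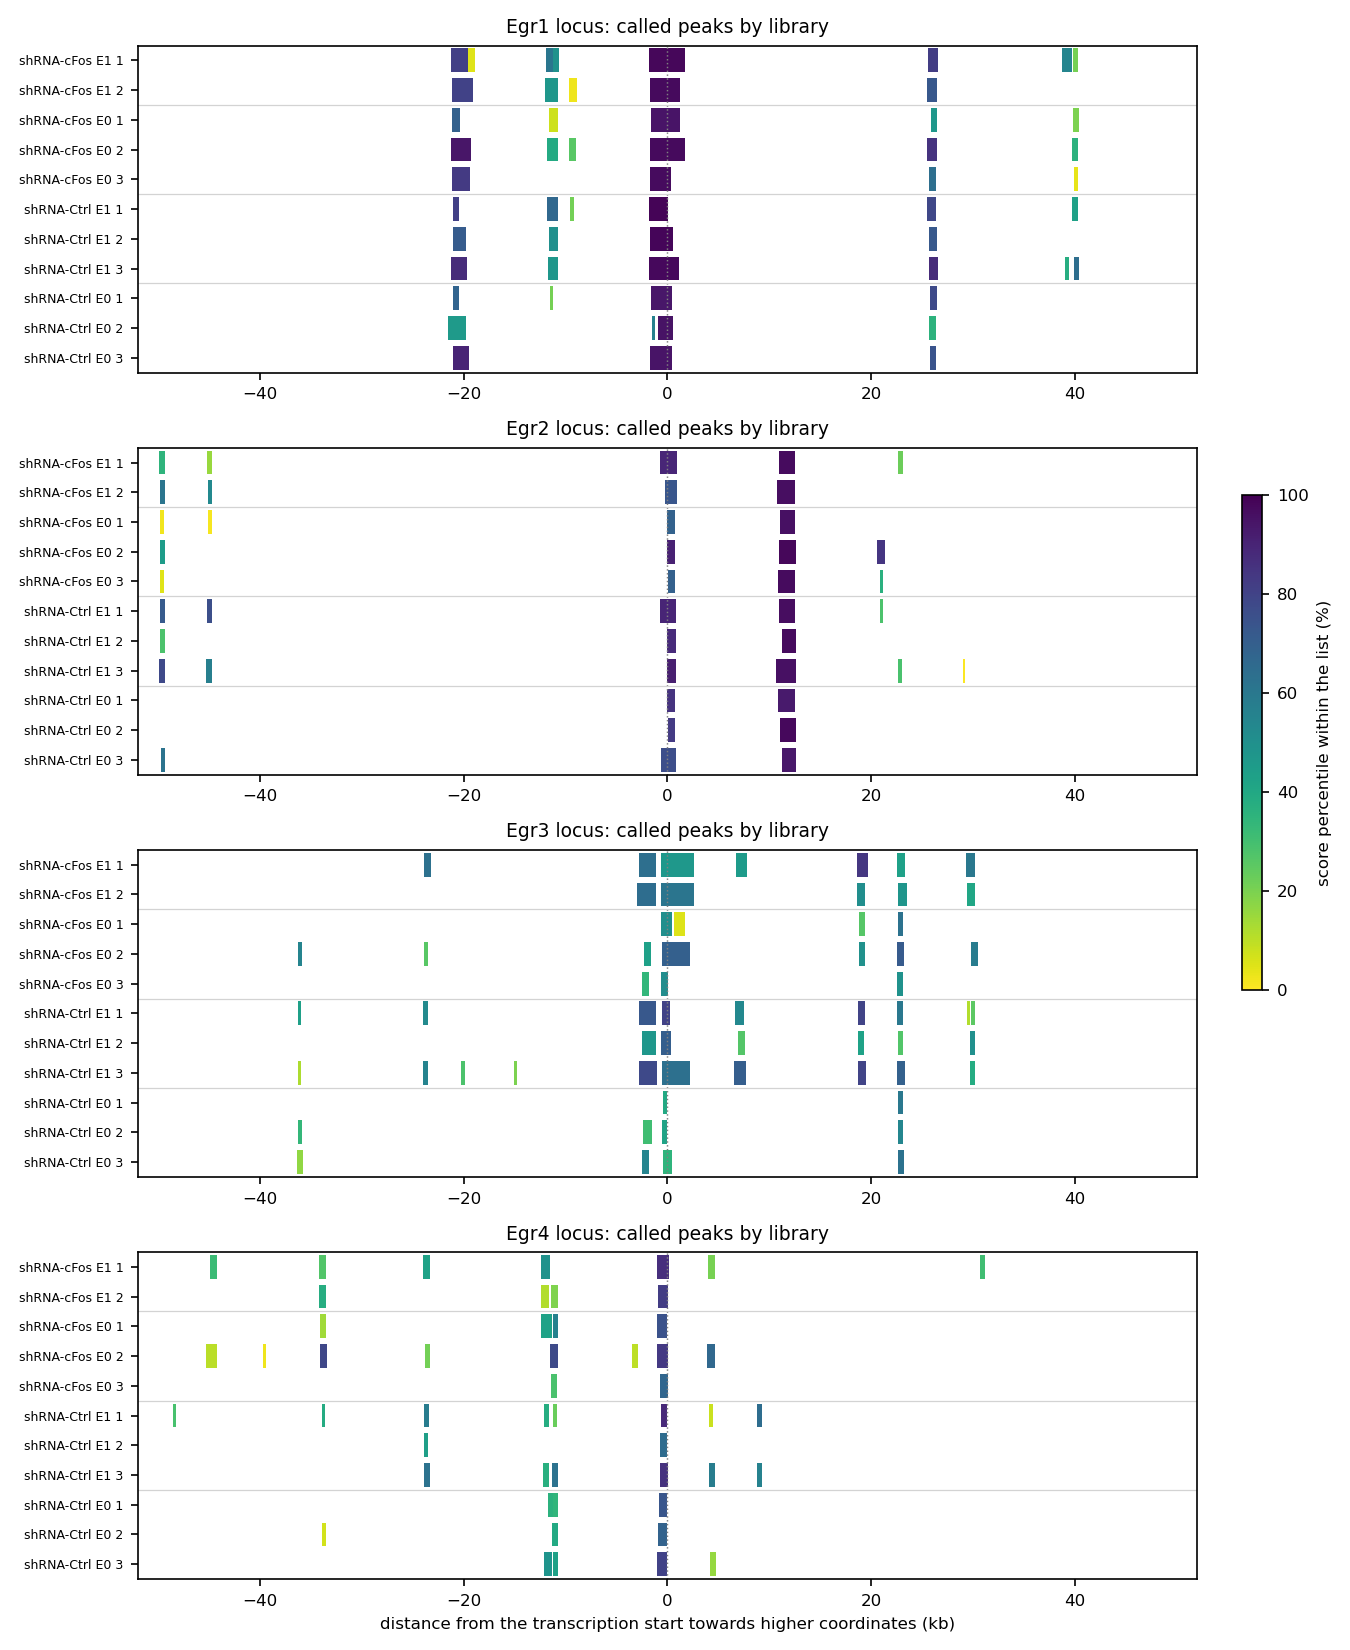
Called peaks around each Egr start as bars at true width, 1 row per library, with the distance from the start in kb on the horizontal axis and the score percentile within the list as colour. The Egr1 promoter and the Egr2 region at +11.7 kb are dark in all 11 rows, and the Egr3 rows at E1 hold more bars than those of shRNA-Ctrl E0.

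A promoter peak was called at every one of the 4 genes in all 11 libraries. Egr1 was highest in each library, by 6.33 points or more over Egr2 and by 10.5 or more over Egr4. Egr2 was above Egr3 in 11 of 11 libraries, Egr4 above Egr3 in 10, and Egr2 above Egr4 in 8, with a median gap of 2.93 points and a range of -8.99 to 23.0. Egr2 and Egr4 thus did not separate beyond their spread, while Egr1 stood above and Egr3 below them. The same counts of libraries held in the lists of equal length, where the Egr3 promoter peak was missing in shRNA-cFos E1 replicate 1 and in shRNA-Ctrl E1 replicate 3. This order is that of peak scores, which are not per base. Over all regions called in 11 libraries, the median region was 1363 bp wide and had a mean percentile of 81.4. The Egr1 region (3539 bp) was at least as wide as 98.4% of them and its mean percentile of 96.7 was at or above 91.1% of them. At Egr3 the region (3272 bp) was at least as wide as 97.7% of them, but its mean percentile of 55.5 was at or above only 6.17%.

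**Figure D2:**
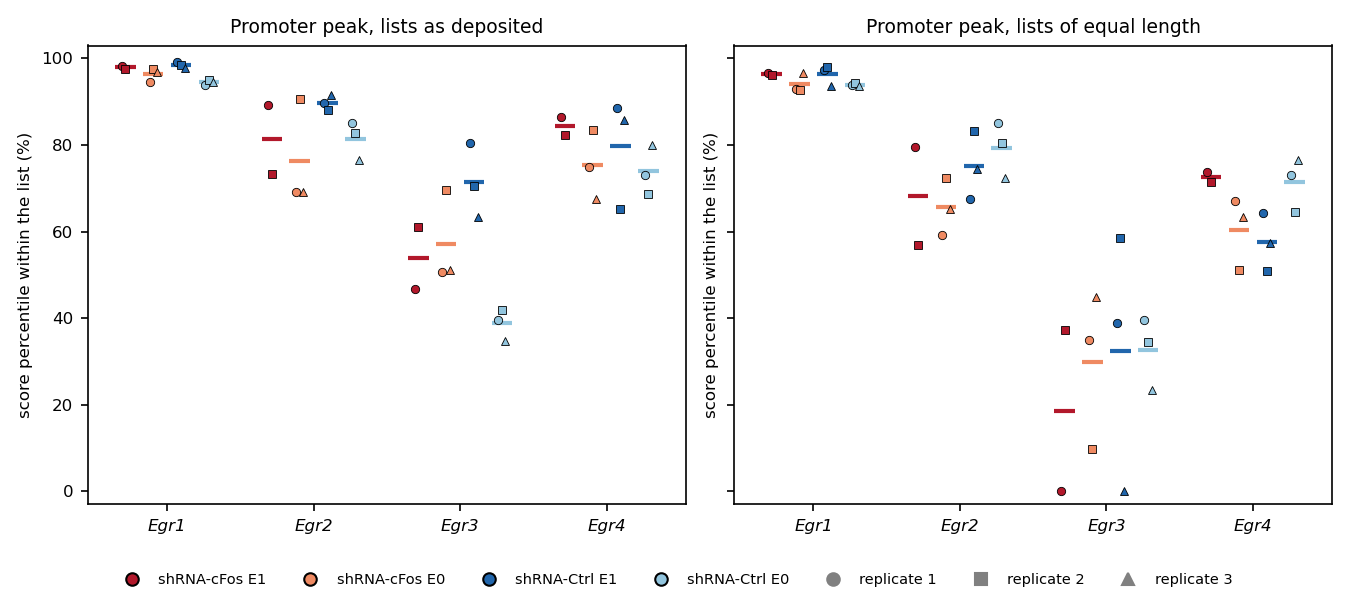
Score percentile (percent of peaks in the same list) of the promoter peak of each gene by library, from the lists as deposited (left) and of equal length (right), with group means as bars. Egr1 is the highest gene in all 11 libraries in both panels; a value of 0 on the right marks 2 libraries without an Egr3 promoter peak.

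The Egr1 promoter peak ranked higher at E1 than at E0 in both shRNA groups, near the top of every list. Its region is chr18:35019181-35022719 (mm9), across the start. The score percentile was 98.2 and 97.6 in shRNA-cFos E1, 94.6, 97.6 and 96.9 in shRNA-cFos E0, 99.1, 98.6 and 97.9 in shRNA-Ctrl E1 and 93.9, 95.1 and 94.6 in shRNA-Ctrl E0. Every E1 library was above every E0 library of its own shRNA group, although in shRNA-cFos by a narrow margin over E0 replicate 2. Group means were 97.9 ± 0.407 in shRNA-cFos E1 (SD, n = 2), 96.4 ± 1.58 in shRNA-cFos E0 (SD, n = 3), 98.5 ± 0.607 in shRNA-Ctrl E1 (SD, n = 3) and 94.5 ± 0.606 in shRNA-Ctrl E0 (SD, n = 3). Over the 11 libraries E1 was 2.80 points higher than E0 by the exact permutation test within shRNA groups (two-sided exact p = 0.01, Benjamini-Hochberg adjusted p = 0.352 over 128823 regions). In lists of equal length the E1 and E0 libraries overlapped in both shRNA groups, and the difference was 2.33 points (exact p = 0.065). In the replicate block the difference was 3.17 points (exact p = 0.0625, the smallest this block can give). Among the 11796 regions called in all 11 libraries the median region was 3.80 points higher at E1 as deposited. That is more than the Egr1 promoter, which is close to the ceiling of the scale. Over all 128823 regions, 48.6% had a difference at or below that of the Egr1 promoter.

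Of the other 5 regions near Egr1, those at -20.2 kb and +26.1 kb from the start were called in all 11 libraries. The region at -20.2 kb (chr18:34999458-35002108, mm9) ranged over percentiles of 46.0 to 94.3, and that at +26.1 kb (chr18:35046510-35047594) over 35.7 to 87.7. Neither separated E1 from E0: the differences were 5.24 points (exact p = 0.57) and 14.6 points (exact p = 0.18), against -9.60 (exact p = 0.32) and 3.37 points (exact p = 0.825) at equal length, so the sign at -20.2 kb depended on list length. The region at -11.3 kb (chr18:35008972-35010330) had the greatest difference at this gene. It was called at 60.7 and 47.1 in shRNA-cFos E1, at 7.7 and 39.1 in replicates 1 and 2 of shRNA-cFos E0 and not in replicate 3, at 66.7, 50.2 and 47.2 in shRNA-Ctrl E1, and at 21.0 in replicate 1 of shRNA-Ctrl E0 only. All 5 E1 libraries thus lay above all 6 E0 libraries. E1 was 43.0 points higher (exact p = 0.01, adjusted p = 0.352), and the exact p stayed at or below 0.02 without any 1 library. At equal length 4 libraries called it, both of shRNA-cFos E1, none of shRNA-cFos E0, 1 of shRNA-Ctrl E1 and 1 of shRNA-Ctrl E0, and the difference was 11.3 points (exact p = 0.17).

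The region at +39.6 kb from the Egr1 start (chr18:35059773-35061440) was the 1 region near these genes called in all libraries of one shRNA group and none of the other at E0. Percentiles were 54.6 and no peak in shRNA-cFos E1, 19.7, 36.1 and 3.5 in shRNA-cFos E0, 42.9, no peak and 64.4 in shRNA-Ctrl E1, and no peak in shRNA-Ctrl E0. The shRNA-cFos E0 calls included a peak close to the bottom of its list. Over the series 1.11% of regions had this pattern, and in lists of equal length 1 library kept a peak there. Its shRNA-cFos minus shRNA-Ctrl difference was 5.65 points (exact p = 0.73), and its E1 minus E0 difference 21.6 points (exact p = 0.21).

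At Egr2 the promoter was not the strongest region. The promoter region, chr10:66999264-67000935 (mm9), had percentiles of 89.3 and 73.4 in shRNA-cFos E1, 69.1, 90.7 and 69.2 in shRNA-cFos E0, 89.6, 88.2 and 91.6 in shRNA-Ctrl E1 and 85.2, 82.8 and 76.4 in shRNA-Ctrl E0. The E1 and E0 libraries overlapped in shRNA-cFos and did not in shRNA-Ctrl. E1 was 6.67 points higher over the 11 libraries (exact p = 0.245), while at equal length the difference was -0.785 points (exact p = 0.895). A second region, chr10:67010688-67012668, centred 11.7 kb downstream of the start, ranged from 93.0 to 98.2 and was above the promoter in all 11 libraries, by 4.4 to 27.7 points. At equal length it was again above the promoter in 11 of 11, by 7.8 to 36.8 points. Its level varied little with the groups: the E1 minus E0 difference was 0.61 points (exact p = 0.49; -2.31 points, exact p = 0.165, at equal length) and the shRNA-cFos minus shRNA-Ctrl difference 1.08 points (exact p = 0.29).

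Away from these, the Egr2 regions with the greatest differences between E1 and E0 lay at -45.0 kb and -49.6 kb. The region at -45.0 kb (chr10:66954704-66955309) was called at 15.3 and 52.9 in shRNA-cFos E1, at 1.6 in shRNA-cFos E0 replicate 1 only, at 76.0 and 57.2 in replicates 1 and 3 of shRNA-Ctrl E1 and in no library of shRNA-Ctrl E0. A peak was therefore present in 4 of 5 E1 libraries and 1 of 6 E0 libraries. E1 was 39.0 points higher (exact p = 0.02, adjusted p = 0.352), but without any 1 of the E0 libraries, or of the shRNA-cFos E1 libraries, the exact p was 0.05 or more, up to 0.0667. At equal length 2 E1 libraries and no E0 library kept a peak there, and the difference was 10.2 points (exact p = 0.2). At -49.6 kb (chr10:66950081-66950702) 9 libraries had a peak, at percentiles of 35.0 and 61.1 in shRNA-cFos E1, 2.3, 45.0 and 4.9 in shRNA-cFos E0, 71.8, 28.5 and 77.8 in shRNA-Ctrl E1 and, in replicate 3 alone, 61.9 in shRNA-Ctrl E0. That difference was 34.7 points (exact p = 0.065), and 7.62 points at equal length (exact p = 0.59). Another 3 regions at +21.0, +22.9 and +29.1 kb were called in 3, 2 and 1 libraries.

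Egr3 had the weakest promoter peak of the family and 4 of the 8 regions that were higher at E1 with an exact p under 0.05 as deposited. Its promoter region is chr14:70476327-70479598 (mm9). Percentiles were 46.6 and 61.2 in shRNA-cFos E1, 50.7, 69.5 and 51.2 in shRNA-cFos E0, 80.4, 70.6 and 63.4 in shRNA-Ctrl E1 and 39.7, 42.0 and 34.8 in shRNA-Ctrl E0. The shRNA-Ctrl E1 libraries were all above those of shRNA-Ctrl E0, whereas the shRNA-cFos libraries of both states overlapped. As the mean over both shRNA groups E1 was 14.7 points higher (exact p = 0.095), and at equal length the difference was -5.70 points (exact p = 0.65). The E1 effect was -3.25 points in shRNA-cFos and 32.6 points in shRNA-Ctrl, a difference of effects of -35.9 points (exact p = 0.04, adjusted p = 1 over 128823 regions). Without 1 library this exact p ranged from 0.025 to 0.113. At equal length the difference of effects was -11.2 points (exact p = 0.66), with both missing peaks at 0.

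Of the other 9 Egr3 regions, 5 lay at -2.0 kb or between +7.1 and +29.9 kb from the start, which is downstream of it. The greatest difference was at +19.1 kb (chr14:70495612-70496653), with percentiles of 84.2 and 50.9 in shRNA-cFos E1, 26.2 and 50 in replicates 1 and 2 of shRNA-cFos E0 and no peak in replicate 3, 80.1, 42.4 and 79.8 in shRNA-Ctrl E1 and no peak in shRNA-Ctrl E0. Every E1 library had a peak and 2 of 6 E0 libraries did. E1 was 54.8 points higher (exact p = 0.01, adjusted p = 0.352), and the exact p stayed at or below 0.025 without any 1 library. In lists of equal length percentiles were 69.7 and 20.7 in shRNA-cFos E1, 2.8 in shRNA-cFos E0 replicate 1 only, 37.9, 18.8 and 38.9 in shRNA-Ctrl E1 and no peak in shRNA-Ctrl E0. There all 5 E1 libraries lay above all 6 E0 libraries, by 38.1 points on average (exact p = 0.005, adjusted p = 0.162 over 59301 regions). That exact p is the smallest that 200 permutations can give. As deposited the states overlapped across shRNA groups, since shRNA-Ctrl E1 replicate 2 (42.4) was below shRNA-cFos E0 replicate 2 (50). Of the 34 regions, the one at +19.1 kb alone was higher at E1 with an exact p under 0.05 in both forms of the lists. Over the series 7.75% of regions were so as deposited and 6.72% at equal length. The share of all regions that were so in both forms is not given here.

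The region at -2.0 kb (chr14:70474021-70475976), just before the Egr3 promoter, had percentiles of 64.0 and 64.5 in shRNA-cFos E1, no peak, 43.1 and 34.1 in shRNA-cFos E0, 73.0, 47.2 and 77.9 in shRNA-Ctrl E1 and no peak, 30.7 and 54.7 in shRNA-Ctrl E0. In shRNA-cFos the states did not overlap; in shRNA-Ctrl E0 replicate 3 exceeded E1 replicate 2. The difference was 38.0 points (exact p = 0.02, adjusted p = 0.352), and the exact p was 0.05 without either shRNA-cFos E1 library. At equal length it was 15.1 points (exact p = 0.17). The region at +7.1 kb (chr14:70483503-70484776) was called at 45.5 in shRNA-cFos E1 replicate 1, at 53.3, 26.9 and 70.6 in shRNA-Ctrl E1 and in no E0 library. E1 was 36.5 points higher (exact p = 0.02), and the exact p was 0.05 or more, up to 0.1, without shRNA-cFos E1 replicate 1 or any 1 of the shRNA-cFos E0 libraries. At equal length 1 E1 library kept a peak there (1.88 points, exact p = 1). That at +29.9 kb (chr14:70506348-70507488) had 59.9 and 40.7 in shRNA-cFos E1, 58.3 in shRNA-cFos E0 replicate 2 only, 25.1, 50.1 and 38.5 in shRNA-Ctrl E1 and no peak in shRNA-Ctrl E0. Its difference was 34.4 points (exact p = 0.03), with an exact p up to 0.0875 without any 1 shRNA-Ctrl E1 library, shRNA-cFos E0 replicate 1 or 3 or shRNA-cFos E1 replicate 1, and at equal length 3 E1 libraries and no E0 library kept a peak (11.7 points, exact p = 0.05).

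The region at +23.0 kb (chr14:70499520-70500524), the next one beyond +19.1 kb, went the other way. As deposited it was called in all 11 libraries, at 43.2 and 47.7 in shRNA-cFos E1, 62.2, 71.8 and 49.2 in shRNA-cFos E0, 60.0, 27.1 and 69.3 in shRNA-Ctrl E1 and 59.9, 54.1 and 62.4 in shRNA-Ctrl E0, and the E1 minus E0 difference was -11.1 points (exact p = 0.185). At equal length 2 of 5 E1 libraries and 6 of 6 E0 libraries kept a peak, with percentiles of 15.4 in shRNA-cFos E1 replicate 2, 50.1, 16.4 and 42.6 in shRNA-cFos E0, 7.4 in shRNA-Ctrl E1 replicate 3 and 59.9, 48.2 and 55.8 in shRNA-Ctrl E0. Each E0 library was above each E1 library. The difference was -40.4 points (exact p = 0.01, adjusted p = 0.224), with an exact p of at most 0.025 without any 1 library. So at equal length 2 neighbouring regions on the same side of Egr3 differed between E1 and E0 in opposite directions. The remaining 4 Egr3 regions, from -36.1 to -15.0 kb, were called in 1 to 5 libraries with exact p-values of 0.14 or more.

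Egr4, on the minus strand, had the most regions in its window and the fewest called in all 11 libraries. Of its 11 regions, 4 were called in a single library and the promoter alone in all 11. Over the series 37.9% of regions were called in 1 library and 9.16% in all 11, close to the shares at Egr4. The promoter region, chr6:85462979-85464129 (mm9), had percentiles of 86.4 and 82.4 in shRNA-cFos E1, 74.9, 83.5 and 67.5 in shRNA-cFos E0, 88.6, 65.2 and 85.9 in shRNA-Ctrl E1 and 73.1, 68.6 and 80.1 in shRNA-Ctrl E0. States overlapped in both shRNA groups, and E1 was 7.50 points higher (exact p = 0.155). At equal length the values were 73.9 and 71.5 in shRNA-cFos E1, 67.0, 51.0 and 63.3 in shRNA-cFos E0, 64.4, 50.9 and 57.4 in shRNA-Ctrl E1 and 73.1, 64.6 and 76.7 in shRNA-Ctrl E0. There E1 was above E0 in shRNA-cFos and below it in shRNA-Ctrl, with no overlap in either. The E1 effects differed by 26.2 points (exact p = 0.015, adjusted p = 1 over 59301 regions), against 3.13 points as deposited (exact p = 0.76).

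The Egr4 region at -23.6 kb (chr6:85440038-85440670), downstream of the start on this strand, had the greatest difference as deposited: it was called at 42.4 in shRNA-cFos E1 replicate 1, at 21.3 in shRNA-cFos E0 replicate 2, at 58.4, 44.1 and 62.1 in shRNA-Ctrl E1 and in no library of shRNA-Ctrl E0. E1 was 34.5 points higher (exact p = 0.035, adjusted p = 0.494), with an exact p up to 0.0875 without any 1 shRNA-cFos E0 library or shRNA-cFos E1 replicate 1, and at equal length 1 library kept a peak. The second greatest, at +9.0 kb (chr6:85472746-85473331), was called in replicates 1 and 3 of shRNA-Ctrl E1 alone, at 64.5 and 55.6, the 2 libraries with the longest lists (20.0 points, exact p = 0.4). A region at -11.6 kb (chr6:85451575-85453284) was found in 10 libraries as deposited, with an E1 minus E0 difference of -13.7 points (exact p = 0.365). At equal length its percentiles were 3.3 in shRNA-cFos E1 replicate 1, 41.6, 33.7 and 19.4 in shRNA-cFos E0, no peak in shRNA-Ctrl E1 and 36.0, 31.8 and 39.2 in shRNA-Ctrl E0. All 6 E0 libraries were above all 5 E1 libraries, by -32.8 points as E1 minus E0 (exact p = 0.01, adjusted p = 0.224; at most 0.0167 without any 1 library). The other 7 Egr4 regions were called in 1 to 6 libraries as deposited.

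**Figure D3:**
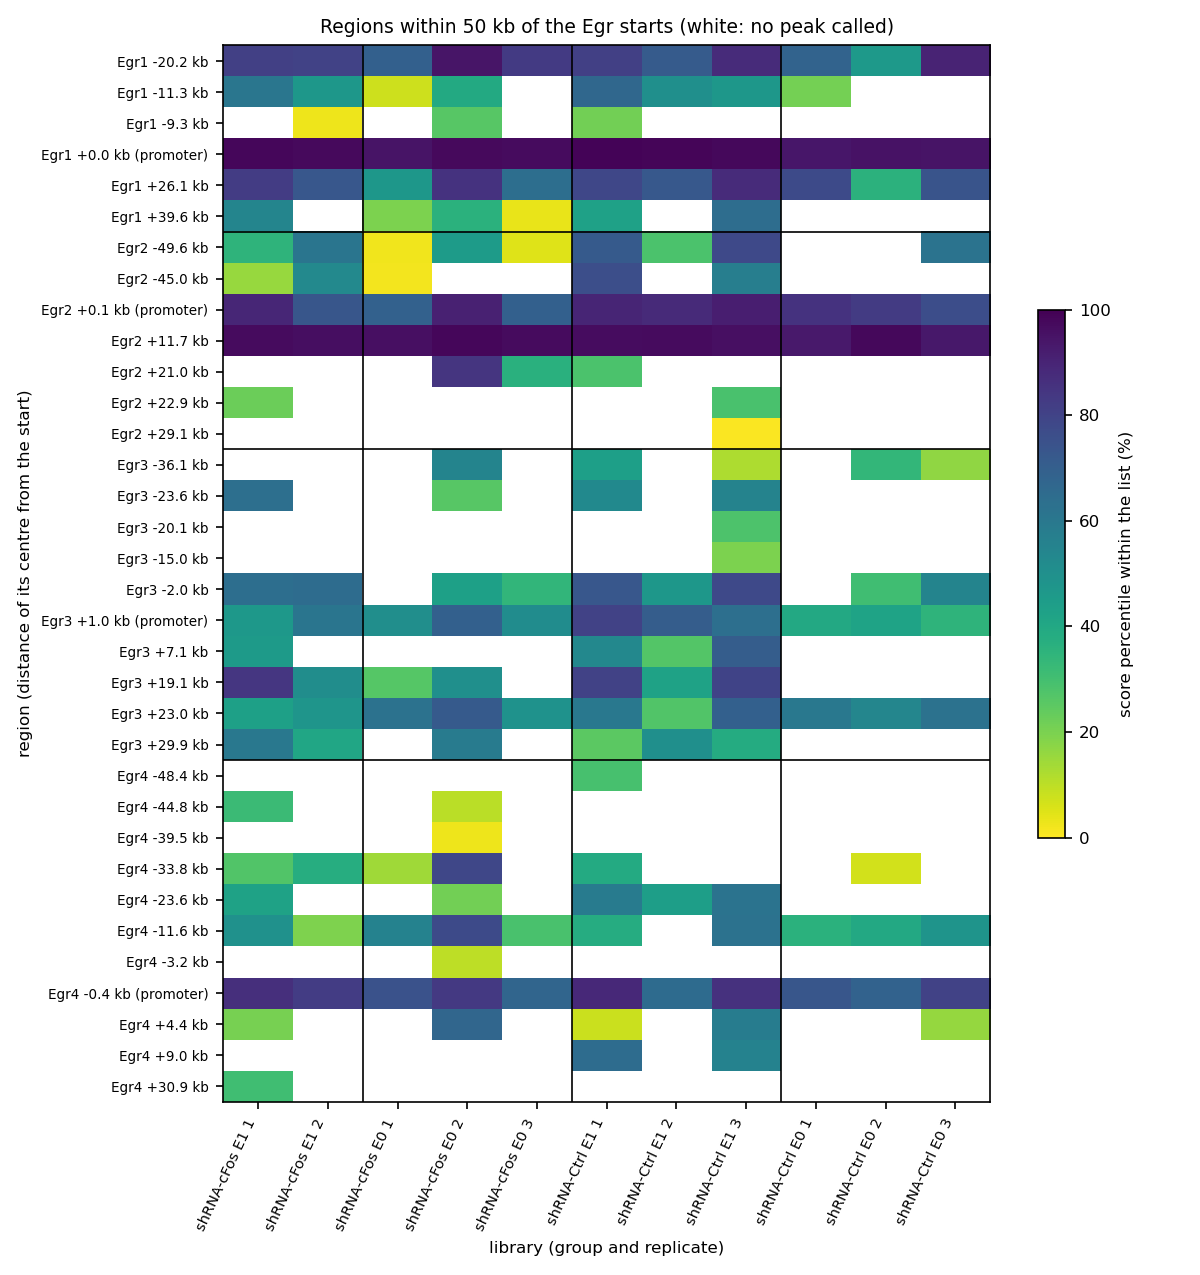
Score percentile (percent, colour; white where no peak was called) of the 34 regions, from the lists as deposited, with libraries in columns and regions in rows by gene and distance from the start. The Egr3 rows at -2.0, +7.1, +19.1 and +29.9 kb are filled in 4 to 5 of the 5 E1 libraries and in 0 to 4 of the 6 E0 libraries.

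As a list, 27 of the 34 regions had a positive E1 minus E0 difference and 7 a negative one, with a median difference of 6.48 points. The series median of 3.80 points covers only the 11796 regions called in all 11 libraries, so the 2 sets are unlike. As deposited 8 of 34 were higher at E1 with an exact p under 0.05 (2 at Egr1, 1 at Egr2, 4 at Egr3 and 1 at Egr4), a share of 23.5%, where 7.75% of all regions were. None was lower, where 0.127% of all regions were. Regions called in 1 library, which cannot reach that p, made up 7 of the 34 but 37.9% of all regions, and regions called in all 11 made up 8 of the 34 but 9.16% of all. The 8 became 4 without shRNA-cFos E0 replicate 1, 4 without shRNA-cFos E0 replicate 3 and 3 without shRNA-cFos E1 replicate 1. In lists of equal length the windows held 23 regions of 59301, of which 6 were called in all 11 libraries (16.4% of all). There 1 region was higher at E1 (6.72% of all) and 2 were lower (3.76%), and the median difference was 1.88 points. The median of -0.897 points for the series at equal length again covers only regions called in all 11 libraries, of which there were 9716. No region of the series had an adjusted p under 0.05 in either form, and the smallest adjusted p was 0.301 as deposited and 0.162 at equal length.

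The number of regions called was greatest at Egr3 in shRNA-Ctrl E1. Regions called within 50 kb of Egr3 numbered 7 and 5 in shRNA-cFos E1, 3, 7 and 3 in shRNA-cFos E0, 8, 6 and 10 in shRNA-Ctrl E1 and 2, 4 and 4 in shRNA-Ctrl E0. The E1 minus E0 difference was 3.17 regions (exact p = 0.05, adjusted p = 0.522). It was at or above the difference in 98.0% of the 11800 windows around regions called in all libraries and the 4 genes, whose median was 0.75. At Egr2 the counts were 5 and 4 in shRNA-cFos E1, 4, 4 and 4 in shRNA-cFos E0, 5, 3 and 6 in shRNA-Ctrl E1 and 2, 2 and 3 in shRNA-Ctrl E0, a difference of 1.42 regions (exact p = 0.04, adjusted p = 0.522). This was the 1 gene of 4 with an exact p under 0.05, where 8.01% of windows were higher at E1 with such a p, and the exact p was 0.08 or more without any 1 library other than replicate 2 of shRNA-Ctrl E1 or of shRNA-cFos E1. Egr1 and Egr4 differed by 0.83 (exact p = 0.23) and 1.33 regions (exact p = 0.415), the last at 0.333 without shRNA-cFos E1 replicate 1 and 2.33 without replicate 2. In lists of equal length no gene of the 4 had an exact p under 0.05, where 3.79% of windows were higher at E1 with such a p and 6.52% had one in either direction: the differences were 0.75 at Egr1 (exact p = 0.14), 0.5 at Egr2 (exact p = 0.455), 1.08 at Egr3 (exact p = 0.09) and -1.08 at Egr4 (exact p = 0.09).

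**Figure D4:**
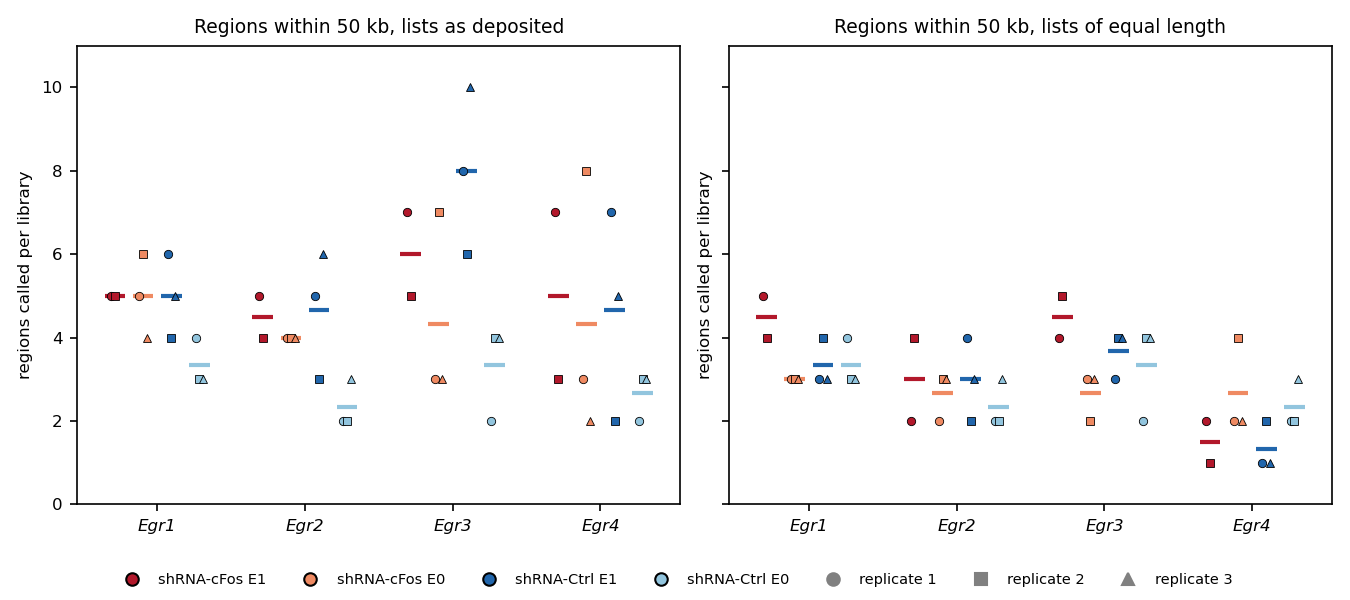
Number of regions within 50 kb of each Egr start that each library called, from the lists as deposited (left) and of equal length (right), with group means as bars. At Egr3 the shRNA-Ctrl E1 libraries sit at 6 to 10 as deposited and at 3 to 4 at equal length, against 2 to 4 in shRNA-Ctrl E0 in both panels.

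Regions called in every library of one state and none of the other were then counted. In shRNA-Ctrl 4 of the 34 regions were found only at E1, the Egr3 regions at +7.1, +19.1 and +29.9 kb and the Egr4 region at -23.6 kb, a share of 11.8% against 6.04% of all regions. None was found only at E0 (0.0442% of all). In shRNA-cFos none was found only at E1 (1.96% of all) or only at E0 (0.548%), and none was found in all E1 and no E0 libraries of both shRNA groups (0.857%). Between shRNA groups, the Egr1 region at +39.6 kb was the 1 found at E0 only in shRNA-cFos, none was found at E0 only in shRNA-Ctrl (0.0217%), and none at E1 only in shRNA-cFos (0.534%) or only in shRNA-Ctrl (1.59%). At equal length 1 region was found only at E1 in shRNA-Ctrl, that at +19.1 kb of Egr3 (3.51% of all), and 1 only at E0, that at -11.6 kb of Egr4 (1.15%). In shRNA-cFos 2 were found only at E1, those at -11.3 kb of Egr1 and +29.8 kb of Egr3 (3.39%).

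The knockdown comparison gave no difference in peak strength with an exact p under 0.05 at any Egr promoter. Of all regions, 1.14% had such a p in this comparison as deposited and 3.5% at equal length. As shRNA-cFos minus shRNA-Ctrl within states, the differences in score percentile were 0.62 points at Egr1 (exact p = 0.345), -6.80 at Egr2 (exact p = 0.18), 0.38 at Egr3 (exact p = 0.965) and 2.94 at Egr4 (exact p = 0.655). At equal length they were 0.0736 (exact p = 0.945), -10.3 (exact p = 0.09), -8.25 (exact p = 0.545) and 2.08 points (exact p = 0.725) in the same order of genes, so the sign at Egr3 turned. With 5 against 6 libraries these do not show that the groups were alike. Counts of regions near the genes differed by 0.83 at Egr1 (exact p = 0.23), 0.75 at Egr2 (exact p = 0.29), -0.5 at Egr3 (exact p = 0.71) and 1 at Egr4 (exact p = 0.58). The E1 effects on these counts did not differ between shRNA groups with an exact p under 0.05 at any of the 4 genes. As deposited, 0.627% of the 11800 windows had such a p for the shRNA difference in counts. For the difference of E1 effects on counts, 2.38% of them did. Within one shRNA group or one state, 2 or 3 libraries against 3 cannot go below an exact p of 0.1.

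Peak width, in contrast, differed between the shRNA groups at Egr1 and Egr3 as deposited. The Egr3 promoter peaks spanned 3252 and 3202 bp in shRNA-cFos E1, 2136 (2 peaks), 2793 and 599 bp in shRNA-cFos E0, 785, 939 and 2719 bp in shRNA-Ctrl E1 and 417, 502 and 902 bp in shRNA-Ctrl E0. The extra width lay downstream: peaks ended at 70479578 and 70479598 on chr14 (mm9) in shRNA-cFos E1, against 70477247, 70477298 and 70479229 in shRNA-Ctrl E1. The shRNA-cFos libraries were 1491 bp wider (exact p = 0.03, adjusted p = 0.325 over the 11796 regions called in all libraries), where the median region was 132 bp wider. At equal length the Egr3 difference was 951 bp (exact p = 0.19). The cut to equal length drops whole peaks and leaves the width of a kept peak as it was. At Egr1 all promoter peaks were kept, so the difference there could not change and the cut is no check of it. Egr1 promoter peaks spanned 3504 and 2967 bp in shRNA-cFos E1, 2850, 3421 and 2118 bp in shRNA-cFos E0, 1892, 2272 and 2943 bp in shRNA-Ctrl E1 and 2005, 1838 and 2156 bp in shRNA-Ctrl E0, a difference of 832 bp (exact p = 0.035, adjusted p = 0.325). At E1 both shRNA-cFos libraries were wider than all shRNA-Ctrl libraries at both genes, and at E0 the groups overlapped. Of the 4 promoters these 2 were wider in shRNA-cFos with an exact p under 0.05, where 13.3% of regions called in all libraries were; Egr2 differed by 71.7 bp (exact p = 0.81) and Egr4 by 218 bp (exact p = 0.085). For the widths in bp as deposited, the exact p at Egr3 was 0.05 without shRNA-cFos E0 replicate 1 and 0.07 without replicate 2. That at Egr1 was 0.05 without shRNA-Ctrl E1 replicate 1 or 2, 0.06 without shRNA-cFos E0 replicate 2 and 0.075 without shRNA-cFos E1 replicate 1.

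Peak width over whole libraries moved with the groups too: the median peak widths in lists of equal length were 775 and 724 bp in shRNA-cFos E1, 612, 856 and 552 bp in shRNA-cFos E0, 599, 587 and 723 bp in shRNA-Ctrl E1 and 438, 536 and 633 bp in shRNA-Ctrl E0. Divided by the library's median peak width, the differences were 2.24 median widths at Egr3 (exact p = 0.07) and 0.73 at Egr1 (exact p = 0.225). Between states the Egr3 promoter peaks were 1129 bp wider at E1 (exact p = 0.05) and those of Egr1 404 bp wider (exact p = 0.19), so none of the 4 promoters was wider at E1 with an exact p under 0.05, where 11.2% of regions were.

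**Figure D5:**
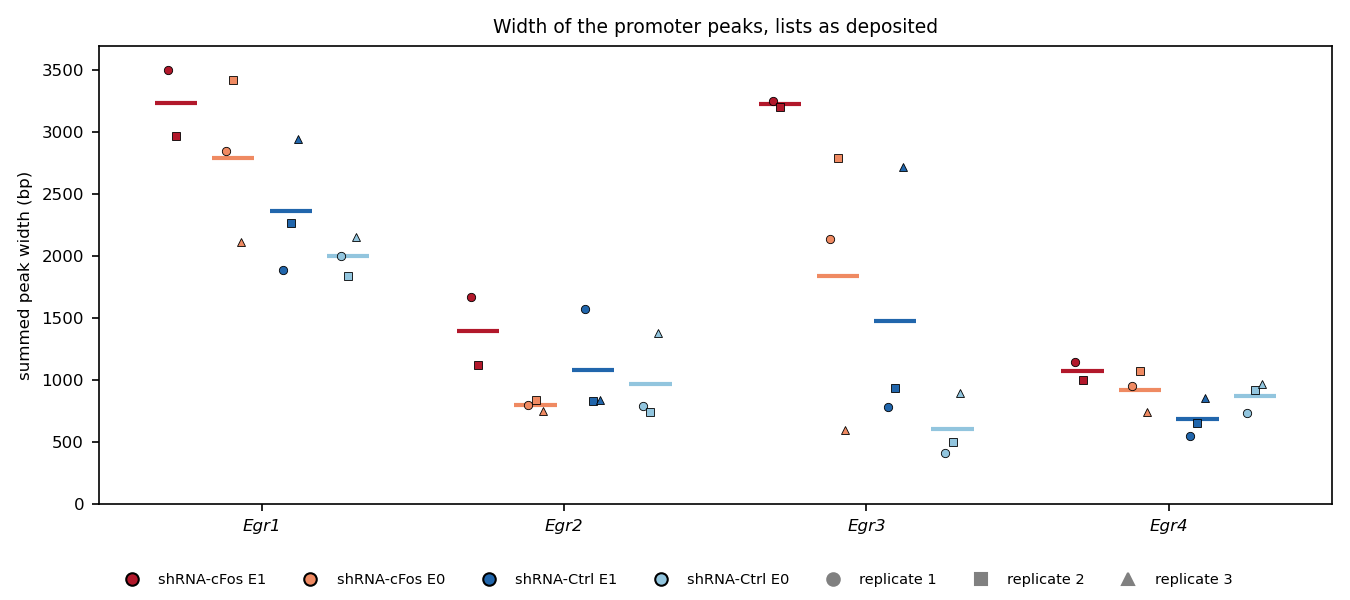
Summed width in bp of the promoter peaks of each gene by library, from the lists as deposited, with group means as bars. At Egr3 both shRNA-cFos E1 libraries are at 3202 and 3252 bp and the shRNA-Ctrl E0 libraries at 417 to 902 bp, with both other groups from 599 to 2793 bp.

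The regions on other chromosomes whose percentiles over the 11 libraries were most like those of each promoter were found by the mean absolute difference, among regions called in all libraries. For Egr1 these were chr13:91946601-91948286 (0.470 points) and chr1:55293612-55295610 (0.691), out of 11299 compared. For Egr2 they were chr13:21417963-21419334 (2.50 points) and chr6:120307114-120307794 (3.14). For Egr3 the nearest were less alike, chr7:52379066-52380446 (6.45 points) and chr1:6372646-6373380 (6.59). For Egr4 they were chr10:14110652-14111542 (2.22 points) and chr11:95245444-95246494 (2.26). All positions are mm9, and no gene was assigned to these regions or to the distal regions near the Egr genes. In GRCm38.p6 the nearest protein-coding neighbours are Reep2 and Etf1 for Egr1, Nrbf2 and Ado for Egr2, Pebp4 and Bin3 for Egr3 and Fbxo41 and Alms1 for Egr4, so the windows may hold regions of genes other than the Egr genes.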

How the data were processed

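ATAC-seq peaks were analysed from 11 dentate gyrus libraries. Reads were aligned with Bowtie2 to mm9, per the submitters' processing notes. The deposited peak names carry the name MACS; the settings, read filters and any transposase shift are not given in the sources used here. Each peak has a score as deposited by the authors, which ran from 50 to 3100 in every list, with no stated scale, and was used only as a rank within its list and for 1 minimum. Replicates are separate mice per the labels' protocols.

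Peaks on chromosomes 1 to 19 and X were merged where they overlapped by 1 bp; 554 peaks elsewhere were left out. The promoter region is the one within 1 kb of the start. Comparisons used two-sided exact permutation tests within strata (200 splits), with Benjamini-Hochberg adjustment over all regions, or over all windows; calls are exact p-values under 0.05. The tests were run on all regions or windows and checked on simulated data. Regions were named by a rule: promoters, regions called in all libraries, regions found in one group only, and the 2 with the greatest E1 minus E0 difference at each gene; others named here were chosen after their values were seen. The tests of peak width between shRNA groups, the tests of score percentiles between shRNA groups and of differences of E1 effects, and the number of regions with an exact p under 0.05 were also added after seeing the data. Alternatives were lists of equal length, a score minimum of 100, merging within 200 bp, 50% cover, windows of 25 and 100 kb, other promoter measures, the replicate block and each library left out. Members and lists were chosen with earlier results of these data known. Same-numbered E1 and E0 libraries had correlations of their deviations of -0.160 to 0.150, so numbers were not taken to pair mice. Python 3.11.15, numpy 2.4.6, pandas 2.3.3 and matplotlib 3.10.9 were used.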

Additional observations from a re-analysis of the deposited data

Results flagged for a closer look

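The E1 effect on the score percentile of the Egr3 promoter as deposited differed between shRNA-cFos and shRNA-Ctrl by -35.9 points (exact permutation p = 0.04, adjusted p = 1). In shRNA-cFos E1 values were 46.6 to 61.2 against 50.7 to 69.5 at E0, and in shRNA-Ctrl E1 they were 63.4 to 80.4 against 34.8 to 42.0 at E0. At E0 all shRNA-cFos libraries were above all shRNA-Ctrl libraries (18.3 points, exact p = 0.1, the smallest possible), and at E1 both were below (-17.5 points, exact p = 0.2). List lengths moved with these groups; in lists of equal length the difference of effects was -11.2 points (exact p = 0.66), and the part of list length beyond that was not tested.

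The Egr4 promoter differed in the same contrast in lists of equal length, by 26.2 points (exact permutation p = 0.015, adjusted p = 1; 0.0167 to 0.05 without 1 library). There shRNA-cFos E1 was above E0 in 2 of 2 libraries (71.5 to 73.9 against 51.0 to 67.0), and shRNA-Ctrl E1 was below E0 in 3 of 3 (50.9 to 64.4 against 64.6 to 76.7). As deposited the difference of effects was 3.13 points (exact p = 0.76).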

How the results depend on the processing

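Lists of equal length changed most. They took the E1 minus E0 difference to -0.785 points at the Egr2 promoter, -5.70 at Egr3 and -0.826 at Egr4, and to 2.33 at Egr1 (exact p = 0.065); region counts to 0.5 at Egr2 and -1.08 at Egr4; the difference of E1 effects on counts to 1.5 at Egr1 and 1.5 at Egr3; the shRNA-cFos minus shRNA-Ctrl count at Egr3 to 0.0833; and the Egr3 width difference to 951 bp (exact p = 0.19). Counts of regions higher at E1 became 1 and lower ones 2; regions found only at E1 became 1 in shRNA-Ctrl and 2 in shRNA-cFos, only at E0 in shRNA-Ctrl 1, and at E0 in 1 shRNA group only 0. A score minimum of 100 gave E1 minus E0 counts of 1.5 at Egr1 (exact p = 0.045) and 0.833 at Egr2 (exact p = 0.185), shRNA-cFos minus shRNA-Ctrl counts of -0.167 at Egr2, 0.75 at Egr3 and -0.0833 at Egr4, and 1 region each found only at E1 in shRNA-Ctrl and shRNA-cFos and 0 in 1 shRNA group at E0. With 50% cover the Egr3 count difference was 4 (exact p = 0.03) and its shRNA difference 1; 1 region each was found only at E1 in shRNA-cFos, in both shRNA groups only at E1, and at E1 in 1 shRNA group, and 0 at E0. Windows of 25 kb gave 0.25 at Egr2, 2.5 at Egr3 (exact p = 0.015), a shRNA difference of -0.167 at Egr4 and 0 regions in 1 shRNA group at E0; windows of 100 kb gave 2.83 at Egr2, 6.92 at Egr3 (exact p = 0.025), and 9, 2 and 1 regions found only at E1 in shRNA-Ctrl, shRNA-cFos and both. By summed width E1 minus E0 was 404 bp at Egr1 and -18.1 bp at Egr4. Divided by median width the shRNA difference was 0.732 at Egr1, -0.289 at Egr2 and 2.24 at Egr3. Merging within 200 bp and the deposited score changed no call or direction. For the score minimum, 50% cover and the other windows, the share of all regions found in one group only is not given here. For the score minimum and the other windows, the number of regions near the genes is not given either. Counts of such regions there do not show whether the patterns were more or less common than among all regions. The same holds for these counts with 1 library left out. The causes of the changes were not tested.

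The replicate block, over 5 pairs and with 0.0625 as its smallest exact p, gave 3.17 points at the Egr1 promoter (exact p = 0.0625) and a count difference of 1.6 at Egr2 (exact p = 0.125); the numbers were not shown to pair mice.

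Leaving out 1 library at a time gave 2.68 to 10.7 points at the Egr2 promoter and 5.33 to 11.2 at Egr4; E1 minus E0 counts of 1.08 to 1.83 at Egr2, 2.67 to 3.83 at Egr3 and 0.333 to 2.33 at Egr4; a difference of effects on counts of -3.33 to 0.667 at Egr4; width differences of 675 to 1001 bp at Egr1, -64.3 to 208 bp at Egr2 and 1253 to 1802 bp at Egr3; 3 to 9 regions higher at E1; and, of regions found only at E1, 4 to 8 in shRNA-Ctrl, 0 to 3 in shRNA-cFos and 0 to 1 in both, only at E0 in shRNA-cFos 0 to 1, and in 1 shRNA group only 1 to 2 at E0 and 0 to 2 at E1.

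Peak lists without read counts limit what can be read: peaks under the caller's threshold are not listed, depth per library is unknown, and list length was higher in all shRNA-Ctrl E1 libraries than in shRNA-Ctrl E0. With 2 or 3 mice per group, differences that miss the threshold do not show likeness.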
